A study of Homo sapiens with 8 samples.

Results

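The BCL2 family of apoptosis regulators was followed through 10 genes given by symbol: the anti-apoptotic genes MCL1, BCL2L1 and BCL2, the effectors BAX and BAK1, and the BH3-only genes PMAIP1, BBC3, BCL2L11, BID and BAD. All 10 were among the 22808 gene symbols counted. The samples were RD18 cells, an established human line of fusion-negative rhabdomyosarcoma, a childhood tumour with features of the skeletal muscle lineage. One group of 4 libraries received the transfection reagent lipofectamine alone (vehicle), and the other 4 received the microRNAs miR-449a and miR-340-5p together. RNA was taken from both groups at 60 h, and the shared background was this 1 cell line. The vehicle cells received no control RNA, so the presence of transfected RNA and the sequences of the microRNAs cannot be told apart, nor can either microRNA be told apart from the other.

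Proteins of this family decide whether the outer mitochondrial membrane is permeabilised and cytochrome c released, the step that activates caspases. MCL1, BCL-XL (from BCL2L1) and BCL2 hold the effectors BAX and BAK in check, and BH3-only proteins such as NOXA (from PMAIP1), PUMA (from BBC3) and BIM (from BCL2L11) bind the guardians or engage the effectors directly. NOXA binds MCL1 with preference, while BIM and PUMA bind all the main guardians. The mRNA of a member does not give its protein level, and MCL1 and NOXA are short-lived proteins. Several members also make splice forms of opposite or differing activity, which counts per gene symbol do not separate.

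The transfected microRNAs are shown first because the members are read against the words they could pair with. Sequences are those of RefSeq for GRCh38.p14, 5′ to 3′, and capitals mark the seed, bases 2 to 8.
hsa-miR-449a: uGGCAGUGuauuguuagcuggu
hsa-miR-340-5p: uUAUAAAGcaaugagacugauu

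The seed of miR-449a pairs with the word CACTGCC, and that of miR-340-5p pairs with CTTTATA. In the longest annotated 3′ UTR of each member (GENCODE 29), the miR-449a word was found in BAX and BAD and the miR-340-5p word in BCL2L11. Neither word was found in MCL1, BCL2L1, BAK1, BBC3, PMAIP1, BID or BCL2, although another annotated 3′ UTR of BID held the miR-449a word. Among the 10522 tested genes with a 3′ UTR of at least 50 bases, 17.9% held the miR-449a word and 19.9% the miR-340-5p word. The 3′ UTRs of the members ran from 379 bases in BAD to 5279 in BCL2. BCL2, a gene reported as a target of the miR-34 and miR-449 family, held the shorter word ACTGCCA (complement of bases 2 to 7, followed by A), which 14.3% of the same genes hold. Their median 3′ UTR was 1469.5 bases, shorter than that of BCL2, and the share is not matched for length. The shorter miR-340-5p word TTTATAA was found in BCL2, BAK1, PMAIP1 and BCL2L11, and 32.9% of the same genes hold it. Windows of 30 bases are printed below with the word in capitals. They are those of the members whose 3′ UTR offers a match of either full word, together with the miR-449a window of BCL2. The BCL2 window lies at chr18:63128404-63128433, minus strand (GRCh38), that of BAX at chr19:48961184-48961213, plus strand, that of BAD at chr11:64270156-64270185, minus strand and that of BCL2L11 at chr2:111164893-111164922, plus strand.
BCL2, miR-449a: atcagctatttACTGCCAaagggaaatatc
BAX, miR-449a: cctggagcctcCACTGCCtctggaattgct
BAD, miR-449a: ccacccgttccCACTGCCctgggcagccat
BCL2L11, miR-340-5p: tatttacgtacCTTTATAaattcagttgca
A match is a description of letters, and binding at it was not measured. The CTTTATA of BCL2L11 is followed by A, whereas the CACTGCC of BAX and of BAD is not.

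The libraries held 2567737 to 5569342 counts. Levels are given as CPM, counts scaled to a common total of the library after correction for composition, with the SD over 4 libraries. Within a group the libraries correlated at 0.972 or above over log2 CPM, and no library stood apart. No label says that replicates were separate cultures, so p-values measure the spread between these libraries, which may be technical. The muscle markers that define the line were present, with MYOD1 at 204 ± 21.7 CPM without and 108 ± 3.72 CPM with the microRNAs and DES at 108 ± 10.6 and 67.7 ± 7.14 CPM. The summed level of 10 muscle markers was 1835 to 2058 CPM with vehicle alone and 942 to 994 CPM with the microRNAs, and all 10 fell, of which MYOG and MYH8 met the minimum on counts in the vehicle group alone. The summed level of 6 leukocyte markers stayed between 1.67 and 3.01 CPM and that of 3 endothelial markers between 0.341 and 3.37 CPM over all libraries. The 5 epithelial markers summed to 38.6 to 49.7 CPM with vehicle alone and 71.9 to 83.3 CPM with the microRNAs. KRT18 made up most of the sum. KRT8, KRT18 and CLDN4 rose, and CLDN4 met the minimum on counts in the treated group alone. CDH1 was at 0 counts in every vehicle library and EPCAM in 3 of 4. In the treated libraries CDH1 had 2, 2, 0 and 0 counts and EPCAM 5, 4, 4 and 8. The 4 fibroblast markers summed to 105 to 120.4 CPM with vehicle alone and 159 to 188 CPM with the microRNAs. COL1A1 made up most of that sum and rose from 97.6 to 168 CPM. LUM went from 7.55 to 0.300 CPM and met the minimum on counts in the vehicle group alone. COL1A2 went from 3.90 to 3.08 CPM and did not pass. DCN was under the minimum and not tested. It went from 3.20 to 0.602 CPM with overlapping groups, and vehicle replicate 2 was its highest library at 7.51 CPM. The part of these shifts in the results for the family was not tested, and in bulk RNA a change in the number of cells of a kind and a change in RNA per cell cannot be told apart.

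Most of the family rose, anti-apoptotic and pro-apoptotic genes alike. Of the 9 members that passed the minimum on counts, 8 rose in treated cells and 0 fell, while BAD did not pass (quasi-likelihood test of edgeR, with p adjusted over all 12366 tested genes and a threshold of 0.05). No tested member was lower at an unadjusted p under 0.05 either. BCL2, with 54 counts in all vehicle libraries, was the member below the minimum and is described by its counts. Among all tested genes 33.4% rose and 34.0% fell, so a call alone is common here. The median log2 fold change was 1.17 over the 9 tested members and -0.0007 over all tested genes. Of the 9, 5 changed by at least 2-fold, namely BBC3, PMAIP1, MCL1, BAX and BCL2L1. In 7 of the 9, and in BCL2, no treated library overlapped any vehicle library, against 58.9% of all tested genes. When only library size was used for scaling, the median of all tested genes moved to 0.137 log2 units; no tested member changed direction under any scaling tried.

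**Figure D1:**
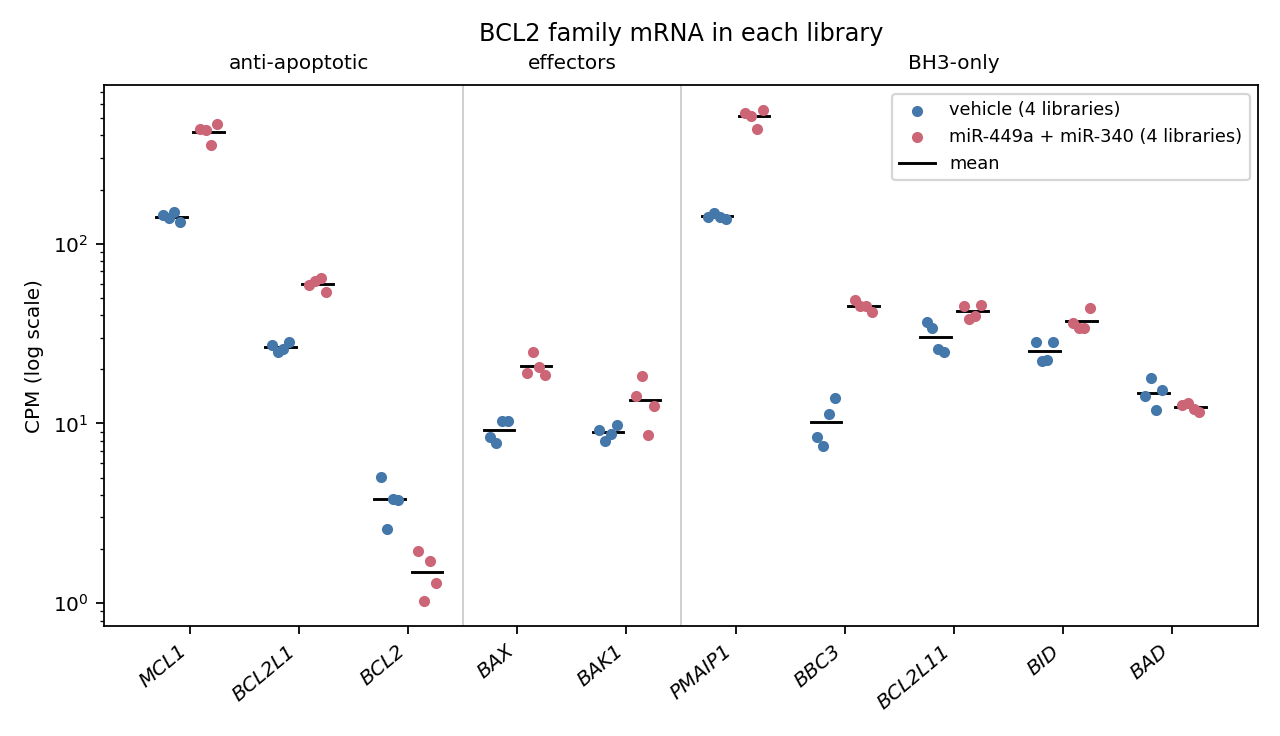
CPM of the 10 members on a log axis in each of the 4 vehicle (blue) and 4 treated (red) libraries, with black lines at the group means and members grouped by role. MCL1 and PMAIP1 sit near 141 and 142 CPM in vehicle and at 353 CPM or above in every treated library, while BCL2 lies at 5.02 CPM or below and is the member whose treated libraries are all lower.

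Among the anti-apoptotic genes, MCL1 and BCL2L1 rose and BCL2 was low and lower. MCL1 (chromosome 1, 150574551 to 150579738, GRCh38) measured 143, 138, 150.0 and 132 CPM in the vehicle libraries. It measured 437, 427, 353 and 464 CPM in the treated libraries. Every treated library was above every vehicle library, with treated replicate 3 the lowest of its group. The gene rose 2.99-fold (log2 fold change 1.58, SE 0.07, edgeR adjusted p = 5.61e-28), higher than 94.4% of tested genes in log2 fold change.

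BCL2L1 (chromosome 20, 31664452 to 31723989), which encodes BCL-XL and the shorter pro-apoptotic form BCL-XS, measured 27.2, 25.1, 25.8 and 28.4 CPM in vehicle. In treated libraries it measured 59.1, 61.6, 64.0 and 54.1 CPM. The groups lay well apart, with narrow spread in both. The rise was 2.25-fold (log2 fold change 1.17, SE 0.11, edgeR adjusted p = 3.55e-14). Its annotated exons share 1424 bases with those of the antisense gene ABALON, and the strand setting of the counting is not given in the sources used here.

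BCL2 (chromosome 18, 63123346 to 63320128), the founding member of the family, had 12, 10, 17 and 15 counts with vehicle alone. With the microRNAs it had 11, 6, 5 and 4. Raw counts overlapped, because treated replicate 1 is among the deepest libraries, but scaled levels did not. They were 5.02, 2.59, 3.82 and 3.77 CPM with vehicle alone and 1.95, 1.02, 1.72 and 1.29 CPM with the microRNAs. The ratio of the means was 2.54 (3.80 ± 0.993 against 1.496 ± 0.419 CPM). With a minimum of 1 CPM in 4 libraries, which the treated group also meets, edgeR gave a log2 fold change of -1.30 (adjusted p = 0.0057). Over the 11 alternatives in which the gene was tested, adjusted p ran from 0.00259 to 0.0255 and every log2 fold change was below 0. Those without mitochondrial genes or without 1 library kept the reported filter. There BCL2 met the minimum on counts through the vehicle group alone, where it is high, so those fits are no separate support for a fall. At these counts, a few reads decide the size of the difference.

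Both effector genes rose. BAX (chromosome 19, 48954815 to 48961798), whose protein moves to mitochondria on activation, measured 8.37, 7.77, 10.3 and 10.3 CPM in vehicle. It measured 19.17, 25.1, 20.7 and 18.7 CPM in treated libraries. All treated values were above all vehicle values, and the gene rose 2.27-fold (log2 fold change 1.18, SE 0.18, edgeR adjusted p = 5.12e-08). BAX is a member that holds the miR-449a word shown above, in the 3′ UTR of 1 annotated transcript.

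BAK1 (chromosome 6, 33572547 to 33580293), whose protein resides in the mitochondrial outer membrane, measured 9.20, 8.03, 8.76 and 9.80 CPM in vehicle. The treated libraries spread more widely, at 14.2, 18.4, 8.61 and 12.6 CPM. Treated replicate 3 lay within the vehicle range. The rise of 1.56-fold passed (log2 fold change 0.64, SE 0.21, edgeR adjusted p = 0.00537), but not without treated replicate 2 (log2 fold change 0.44, adjusted p = 0.0911). BAK1 has the processed pseudogenes BAK1P1 and BAK1P2, so part of its reads may not be assigned with certainty.

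Of the 5 BH3-only genes, PMAIP1 and BBC3 rose most, BCL2L11 and BID rose less, and BAD did not pass. PMAIP1 (chromosome 18, 59899948 to 59904306), which encodes NOXA, measured 141, 149, 140.1 and 138 CPM in vehicle. It measured 536, 511, 436 and 555 CPM in treated libraries. As for MCL1, treated replicate 3 was the lowest treated library and still far above the vehicle group. The rise was 3.60-fold (log2 fold change 1.85, SE 0.06, edgeR adjusted p = 3.49e-33).

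BBC3 (chromosome 19, 47220822 to 47232766), which encodes PUMA, measured 8.37, 7.51, 11.2 and 13.8 CPM in vehicle. In treated libraries it measured 48.3, 45.0, 45.1 and 41.5 CPM. The lowest treated library was 41.5 CPM and the highest vehicle library 13.8 CPM. BBC3 had the largest fold change of the tested members, 4.32-fold (log2 fold change 2.11, SE 0.15, edgeR adjusted p = 3.95e-19), above 97.0% of tested genes.

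Promoter windows of 300 bases (250 before to 50 after an annotated start, RefSeq, GRCh38.p14) were read for 9 members, 15 windows in all, and MCL1 was not matched. They were searched on both strands for the cAMP response element TGACGTCA, the C/EBP-ATF element TGATGCAA and the AP-1 element TGAGTCA, words that do not contain each other. Of all 35116 promoter windows, 1.85% held the first, 0.866% the second and 4.95% the third. Only the window of BBC3 held any of them among the 15, an AP-1 word that begins 113 bases before the start. It is printed as the promoter of the member with the largest fold change, from chr19:47232618-47232917 on the minus strand, with the AP-1 word in capitals.
BBC3 promoter: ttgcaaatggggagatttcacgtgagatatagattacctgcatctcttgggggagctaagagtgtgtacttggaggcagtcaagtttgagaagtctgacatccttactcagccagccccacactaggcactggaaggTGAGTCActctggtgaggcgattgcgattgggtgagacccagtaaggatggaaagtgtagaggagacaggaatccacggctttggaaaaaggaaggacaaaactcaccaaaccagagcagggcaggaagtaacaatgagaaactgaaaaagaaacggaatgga
Binding at this word and use of this annotated start in these cells were not measured.

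BCL2L11 (chromosome 2, 111119378 to 111168447), which encodes BIM, measured 36.8, 33.9, 26.1 and 24.9 CPM in vehicle. It measured 44.7, 38.0, 39.6 and 45.7 CPM in treated libraries. The groups did not overlap, but treated replicate 2 at 38.0 CPM came close to vehicle replicate 1 at 36.8 CPM. The rise was 1.40-fold (log2 fold change 0.49, SE 0.12, edgeR adjusted p = 0.000475). This member holds the miR-340-5p word shown above. Its exons share 727 bases with the long noncoding gene MIR4435-2HG on the opposite strand, which itself went from 49.4 ± 7.65 to 81.3 ± 7.76 CPM, and the share of BCL2L11 counts that could come from it was not tested.

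BID (chromosome 22, 17734138 to 17774770), whose protein is cut by caspase-8 and links death receptors to mitochondria, measured 28.4, 22.3, 22.5 and 28.4 CPM in vehicle. It measured 36.4, 33.8, 33.7 and 44.1 CPM in treated libraries, all above the vehicle values. The rise was 1.46-fold (log2 fold change 0.55, SE 0.13, edgeR adjusted p = 0.000203).

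BAD (chromosome 11, 64269830 to 64284704), a sensitiser that survival kinases hold inactive by phosphorylation, measured 14.2, 17.9, 11.9 and 15.3 CPM with vehicle alone and 12.6, 12.96, 12.05 and 11.6 CPM with the microRNAs. The ranges overlapped. The log2 fold change of -0.26 (SE 0.18) did not pass (edgeR adjusted p = 0.206), and it stayed between -0.37 and -0.12 over 18 alternatives. BAD also holds the miR-449a word, and its exons share 404 bases with GPR137 on the opposite strand, which measured 9.15 ± 0.939 and 7.58 ± 1.15 CPM.

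**Figure D2:**
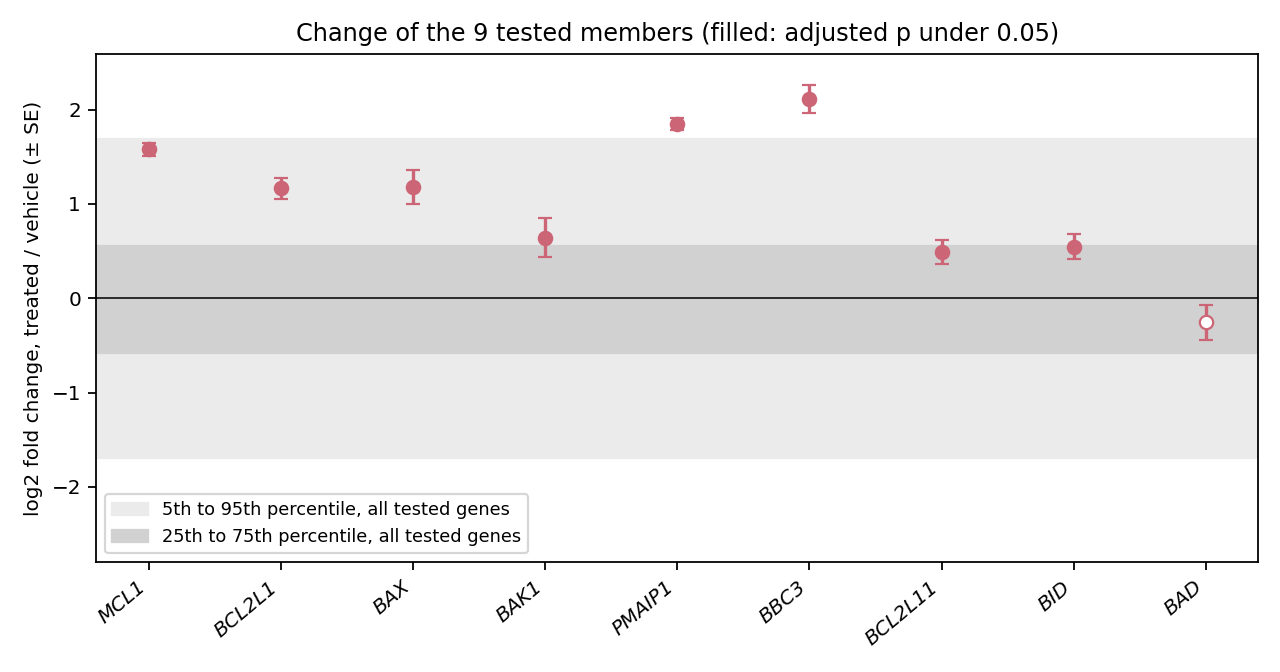
Log2 fold change of the 9 tested members (points, bars ± SE from edgeR, filled where adjusted p is under 0.05) over grey bands for all 12366 tested genes, from the 5th to the 95th percentile (-1.70 to 1.69) and from the 25th to the 75th (-0.58 to 0.56). PMAIP1 and BBC3 lie above the wider band, MCL1 just inside it, and BCL2L11, BID and BAD inside the narrower band.

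Levels were then compared between members per kilobase of merged annotated exons. In vehicle cells PMAIP1 (63.4 ± 2.13 CPM per kilobase, n = 4) was above MCL1 (32.2 ± 1.79), and the library ranges of the 2 genes did not overlap. Next came BAD (8.68 ± 1.45) and BCL2L1 (8.04 ± 0.439), whose ranges overlapped, and then BID (5.71 ± 0.786). BCL2L11, BAK1, BAX and BBC3 followed from 4.57 to 3.22, each overlapping its neighbour in the order. BCL2 was lowest at 0.323 ± 0.0844. MCL1 and PMAIP1 were thus above every other member per length in vehicle cells.

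In treated cells the order began with the same 2 genes, PMAIP1 at 228 ± 23.4 and MCL1 at 96.1 ± 10.8 CPM per kilobase. BCL2L1 came next at 18.0 ± 1.28 and BBC3 after it, up from rank 9 of 10 in vehicle, at 14.1 ± 0.869; both were separated from their neighbours in every library. BID (8.32), BAX (8.08), BAD (7.20), BCL2L11 (6.31) and BAK1 (6.08) formed a run in which neighbours overlapped. BCL2 remained last at 0.127 ± 0.0356. Merged exons include rarely used ones, so a gene with a long annotation such as BCL2 (11765 bases) may be understated.

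**Figure D3:**
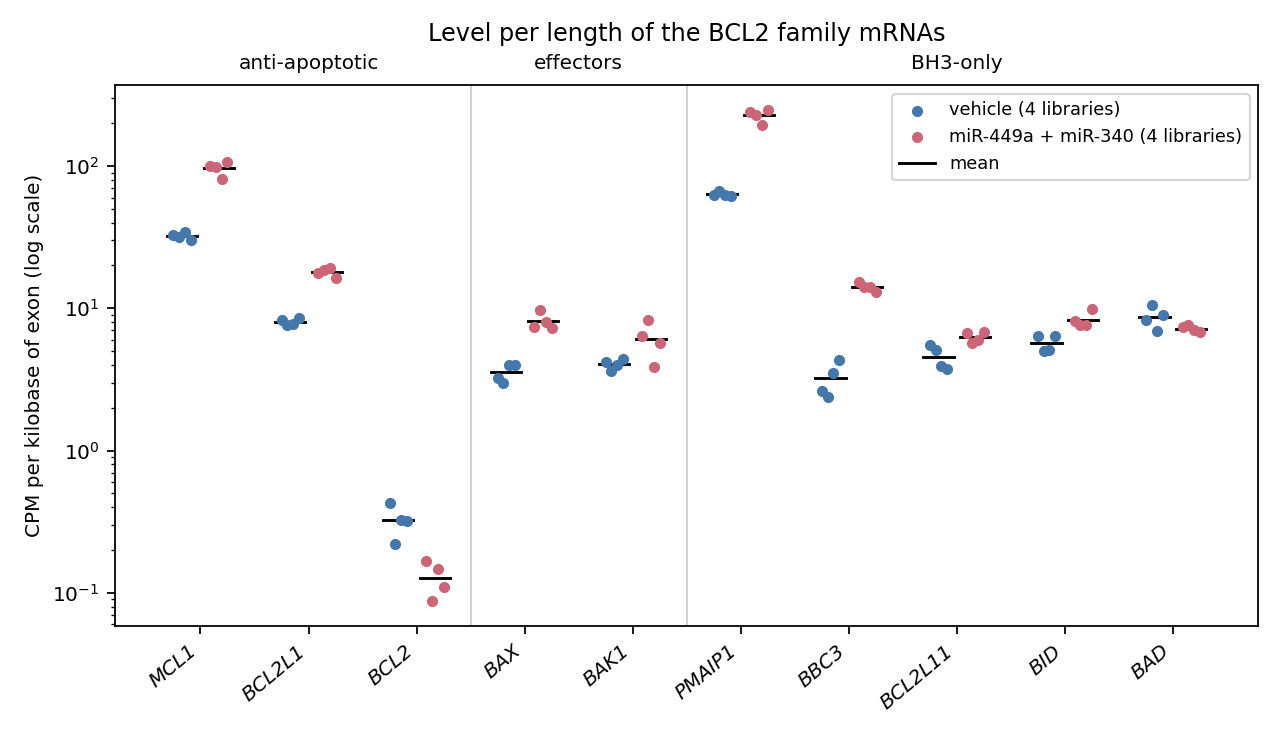
Level of each member in CPM per kilobase of merged exon (log axis), in 4 vehicle (blue) and 4 treated (red) libraries with group means as black lines. PMAIP1 and MCL1 stand above all other members in both groups, and BBC3 moves from 3.22 to 14.1 on average.

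Chosen pairs of members were compared as ratios of counts within a library, which do not depend on the scaling between libraries. MCL1 and PMAIP1 together took 66.7% to 70.7% of the counts of the 10 members in vehicle and 77.8% to 81.6% in treated libraries. The log2 ratio of MCL1 over PMAIP1, the guardian and its preferred inhibitor, was 0.03, -0.11, 0.10 and -0.06 in vehicle and -0.30, -0.26, -0.30 and -0.26 in treated libraries. The treated values were all lower and closely grouped. The difference of the means was -0.27, small beside the rise of either gene.

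BCL2 over BAX had log2 ratios of -0.69, -1.49, -1.38 and -1.39 in vehicle and -3.18, -4.40, -3.35 and -3.56 in treated libraries. The groups did not overlap, and the means differed by -2.38 log2 units. BCL2L1 over BCL2L11 went the other way, from -0.43, -0.43, -0.01 and 0.19 in vehicle to 0.40, 0.69, 0.69 and 0.24 in treated libraries, a difference of 0.68. Vehicle replicate 4 (0.19) and treated replicate 4 (0.24) were nearly equal. MCL1 over BCL2L1 ran from 2.20 to 2.53 in vehicle and from 2.46 to 3.09 in treated libraries, and these ranges overlapped. Relative to the pro-apoptotic partner chosen here, BCL2 was lower, MCL1 slightly lower and BCL2L1 higher in treated libraries. Other partners give other directions. MCL1 rose more than BCL2L11 (log2 fold changes 1.58 and 0.49), and BCL2L1 rose less than BBC3 (1.17 and 2.11). These pairs therefore give no general balance of the family.

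**Figure D4:**
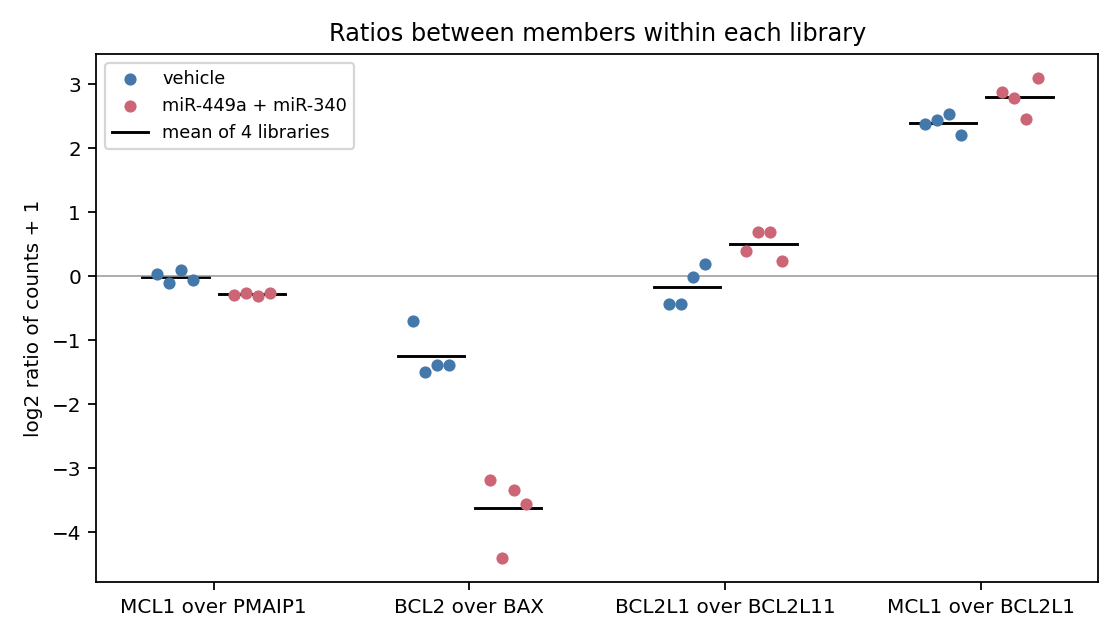
Log2 ratio of counts (1 added to each) for 4 pairs of members in each vehicle (blue) and treated (red) library, with the mean of 4 libraries as a black line. Treated libraries lie below vehicle for MCL1 over PMAIP1 and BCL2 over BAX and above for BCL2L1 over BCL2L11, and the groups overlap for MCL1 over BCL2L1.

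Other genes of the BCL2 family were read next. Of 8 tested genes of this list, 3 rose and 1 fell, beside 33.4% higher and 34.0% lower among all tested genes. The median log2 fold change was 0.16. HRK, a BH3-only gene known for its role in neurons, had 0, 0, 1 and 0 counts with vehicle alone. With the microRNAs it had 45, 59, 29 and 28. The ratio of scaled counts was 135, with an exact 95% interval from 23.9 to 5367 that covers counting error only. HRK is counted among the 3, although it passed the minimum on counts through the treated group alone. BNIP3L, a mitophagy receptor, rose 1.81-fold from 134 ± 4.44 to 242 ± 29.4 CPM (edgeR adjusted p = 2.74e-16). Its relative BNIP3 rose 1.22-fold (adjusted p = 0.0113), a call lost without vehicle replicate 3 (adjusted p = 0.051) or treated replicate 4 (0.057). BCL2L12 fell from 72.9 ± 7.93 to 39.5 ± 2.74 CPM (1.82-fold lower). The other 4 tested genes did not pass: the means in vehicle and treated libraries were 8.06 and 7.06 CPM for BCL2L2, 57.3 and 57.2 CPM for BCL2L13, 11.4 and 11.4 CPM for BOK and 2.65 and 3.47 CPM for BMF. BCL2A1 and BIK were under the count minimum.

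CYCS and CASP2 were among the genes that fell in the list of the apoptosome, caspases and mitochondrial release. Of its 16 tested genes, 4 rose, 7 fell and 5 did not pass (median -0.23), beside 33.4% higher and 34.0% lower among all tested genes. CYCS, which encodes cytochrome c, fell from 261 ± 19.3 to 83.4 ± 5.46 CPM, and CASP2 fell from 41.3 ± 4.37 to 12.03 ± 2.23 CPM. VDAC3, an outer membrane channel, was 1.60-fold lower. CYCS has many processed pseudogenes, so its level is uncertain. The scaffold and initiator of the apoptosome, APAF1 and CASP9, are in the same list and were 1.31-fold and 1.87-fold lower, named here after their values were seen.

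Of 5 tested inhibitors of apoptosis with XAF1, 3 rose and 1 fell (median 0.61), beside 33.4% higher and 34.0% lower among all tested genes. XIAP, which binds active caspases, rose 1.91-fold and BIRC2 1.52-fold. BIRC5, which encodes survivin and also serves the chromosomal passenger complex in mitosis, was 29.7-fold lower, at 243 ± 8.27 CPM with vehicle alone and 8.54 ± 2.11 CPM with the microRNAs. XAF1, an interferon-induced antagonist of XIAP, went from 0.451 ± 0.345 to 110 ± 10.5 CPM. It had 6 counts in all vehicle libraries and 1959 in all treated ones, and is counted among the 3 although it passed the minimum on counts through the treated group alone.

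Among death receptors and their adaptors, 8 of 11 tested genes rose and 2 fell (median 1.21), beside 33.4% and 34.0% among all tested genes. TNFRSF10B, a TRAIL receptor, rose 3.79-fold, from 37.8 ± 3.38 to 144 ± 6.13 CPM (edgeR adjusted p = 1.30e-27). TNFRSF25 went from 1.88 ± 0.399 to 10.9 ± 2.79 CPM and is counted among the 8, although it met the minimum on counts in the treated group alone (27 counts in all vehicle libraries). CASP8, the initiator caspase of these receptors, rose 3.78-fold and CFLAR, its inhibitor, 1.61-fold. TNFSF10, the TRAIL ligand gene, and TNFRSF10A were under the count minimum.

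Of 17 tested genes known to regulate the family's transcription, 8 rose and 6 fell (median 0.15), against a background of 33.4% and 34.0%. DDIT3, which encodes the stress factor CHOP, rose from 15.7 ± 1.67 to 245 ± 18.8 CPM (15.5-fold, edgeR adjusted p = 1.74e-41). ATF3 rose 10.1-fold and JUN 2.85-fold, while E2F1 was 7.32-fold lower.

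Of 19 tested regulators of the family's proteins, 9 rose, 5 fell and 5 did not pass (median 0.28). Among all tested genes 33.4% rose and 34.0% fell. HUWE1, a ubiquitin ligase of MCL1, was 1.80-fold lower (edgeR adjusted p = 2.57e-13). Other ubiquitin ligase genes of the list went both ways, and are named here after their values were seen. FBXW7 rose 1.61-fold and MARCH5 1.42-fold, while BTRC was 1.69-fold lower. BECN1, an autophagy protein that BCL2 and BCL-XL bind, rose 2.09-fold. The 14-3-3 genes, whose proteins hold phosphorylated BAD in the cytosol, went in different directions, with YWHAZ 1.64-fold lower and YWHAG 1.43-fold higher.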

How the data were processed

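RNA of 8 libraries, 4 per group, was sequenced on a HiSeq4000 after preparation with a kit for stranded mRNA, per the labels' protocols. The deposited table holds raw counts of reads for each gene symbol and library, not normalized by the authors. GRCh38, DESeq2, HTSeq 0.5.3p3 and TopHat2 2.0.13 are named, with no role, in the submitters' processing notes. The sources used here state neither annotation nor strand setting of the counting. Columns were matched to samples by the library code in each description.

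Genes were filtered with filterByExpr (minimum count 10, minimum total 15), which kept 12366 genes with 99.46% of counts. After TMM scaling, the quasi-likelihood test of edgeR 4.0.16 (R 4.3.3; glmQLFit with robust estimation, two-sided, no term but group) was run, with p adjusted by Benjamini-Hochberg over all tested genes at 0.05. The SE is the log2 fold change over the square root of F. Alternatives were DESeq2 1.42.0, limma-voom (limma 3.58.1), other scalings and filters, a replicate block, removal of mitochondrial genes, a threshold of 0.01 and leaving out each library. The script was tested on simulated data. Replicates differed by 2.21 to 5.89 in chi-square per gene, where sampling noise gives about 1, so each was counted separately. Totals of 2567737 to 5569342 counts limit precision for genes of a few CPM.

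Words were searched in 3′ UTRs of GENCODE 29. Members and lists were chosen with earlier results of these data known, and the promoter words after the data were seen. Besides the members, the rule named up to 4 genes per list with the smallest adjusted p and a mean of at least 1 CPM. Some genes of the lists are counted with them but not reported singly here. A planned comparison of the members' proteins was not made, as no protein table was used here.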

Additional observations from a re-analysis of the deposited data

Results flagged for a closer look

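Of 28 sets of 4 libraries checked for a library far from the others (the members' CPM and the ratios, per group), 1 had such a library. In the log2 ratio of BCL2 over BAX, vehicle replicate 1 stood at -0.69, above the other vehicle libraries at -1.38, -1.39 and -1.49. It rests on 12 counts of BCL2 and 20 of BAX in the shallowest library. Without it the means of the groups differed by -2.20, against -2.38 with it. Chance alone gives about 1 in 20 such sets.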

How the results depend on the processing

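The 8 rises held under every alternative tried except 1: without treated replicate 2 the count was 7, since BAK1 was lost. No member was called lower in the reported fit because BCL2 fell under the count minimum. BCL2 was called lower, a count of 1, with DESeq2, with no filter, with 1 CPM in 4 libraries and with mitochondrial genes removed, and the count ran from 0 to 1 over fits that leave out a library. With mitochondrial genes removed or a library left out, BCL2 met the minimum on counts through the vehicle group alone. The miR-449a word of bases 2 to 7 followed by A was found in 1 member and that of miR-340-5p in 4, in place of 2 and 1 for the full words; the shorter miR-340-5p word is held by 32.9% of tested genes with a 3′ UTR. Differences in ratios leaving out each library ran from -2.53 to -2.12 for BCL2 over BAX, -0.30 to -0.23 for MCL1 over PMAIP1, 0.59 to 0.80 for BCL2L1 over BCL2L11 and 0.32 to 0.53 for MCL1 over BCL2L1. Over all genes the calls were 4125 higher and 4199 lower, against 4102 and 4171 with the replicate block and 4890 and 3453 with library size alone. Same-numbered libraries correlated at 0.0135 to 0.0555 in their deviations, under the 0.1 needed to read the numbers as pairs, and 7 of 8 libraries correlated best with their own number; the block changed no call of a member. Of 173 alternative values for single members, 172 kept direction and side of the threshold (for BCL2, the value). Of 450 for the other named genes, 447 did, and the 3 that did not were all of BNIP3. Few counts in a group limit the precision for BCL2, HRK, XAF1 and TNFRSF25.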
